A study of Mus musculus with 69 samples.

Results

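The genes described here are those whose symbol begins with Mcm, Orc, Gins, Pola, Pold, Pole, Rfc, Prim, Cdc, Ccna, Ccnb, Bub, Cenp, Kif, Aurk, Plk or Nek followed by the number or letter of a family member, that is, the helicase, origin, polymerase and clamp loader genes of DNA replication and the cyclin, kinase, centromere and kinesin genes of mitosis. On the time course arrays 67 genes matched, of 5037 named genes and of 20669 genes and unnamed oligos tested, and on the arrays against a reference RNA 123 of 8973 named genes. By textbook role 17 of the 67 belong to replication and 30 to mitosis, and 20 share only the letters, such as transport kinesins and Cdc42. On the reference arrays the same division gave 33, 56 and 34 genes. All 67 passed the filter on oligos at the bound of the ratio. Of the 47 replication and mitosis genes of the time course 25 were named by the annotation of the array (9 of replication and 16 of mitosis), and the other 22 only by the tables of the study, which favour genes that changed on these arrays.

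The samples were cultures of mouse ES (embryonic stem) cells, grown without feeder cells in medium with LIF. The ZHTc6 and ZHBTc4 lines are of CGR8 origin. ZHTc6 cells carry 1 working and 1 disrupted Pou5f1 allele, the gene of Oct3/4, and a Pou5f1 transgene that tetracycline (Tet) keeps silent, and were sampled 24, 48, 72, 96 and 120 h after withdrawal of Tet. ZHBTc4 cells were made from ZHTc6 cells by disrupting the remaining allele, so that the Tet-silenced transgene is their only source of Oct3/4, and were sampled at the same times after addition of Tet. Each line and time had 3 samples, described as independently prepared, each set against 0 h RNA of its own line on a dye-swapped pair of arrays. A second platform set 3 samples of each line at 0 h, and single samples of EB5 ES cells given siRNA against Tcl1 at 2 doses or against GFP, against Universal Mouse Reference RNA. Each line is a single established line, so that its values stand for that line and not for several clones.

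Replication begins at origins bound by the origin recognition complex (Orc), where Cdc6 helps to load the Mcm2 to Mcm7 helicase. The kinase Cdc7 and the cofactors Cdc45 and Gins then activate the helicase, polymerase alpha with primase starts each strand, and polymerases delta and epsilon extend it once the clamp loader (Rfc) has placed PCNA. Mitosis is driven by cyclin B, by Aurora and Polo-like kinases and by spindle kinesins, and ends when Cdc20 and the anaphase-promoting complex, of which Cdc16, Cdc23 and Cdc27 are subunits, mark cyclin B and securin for destruction. Transcription of many replication genes is driven by E2F factors, whereas many late cell cycle genes carry a CHR element, often with CCAAT boxes that bind NF-Y. ES cells cycle fast, with a short G1 phase.

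Promoter stretches of 6 genes are shown, 3 with an E2F word and 3 with a CHR word. The windows of 250 bases before to 50 bases after the start, from RefSeq on GRCm38.p6, were searched on both strands for the E2F words TTTCCCGC, TTTCGCGC, TTTGCCGC and TTTGGCGC, for the CHR words TTTGAA and TTTAAA, for CCAAT and for the octamer ATGCAAAT that Oct factors bind. Of 34 windows of replication genes 13 (38.2%) held an E2F word, as did 6 of 62 windows of mitosis genes (9.68%) and 2.26% of all 32851 windows. A CHR word stood in 7 windows of replication genes (20.6%), in 30 of mitosis genes (48.4%) and in 27.6% of all windows. CCAAT was found in 52.9% of the replication, 58.1% of the mitosis and 37.4% of all windows, and the octamer in none of either class and in 1.74% of all. The windows cover 27 of the 33 replication and 53 of the 59 mitosis genes on either array, and a match is a description of letters and not of a bound site.

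The stretches below belong to the genes with the largest called fall in ZHBTc4 cells at 120 h among replication genes with an E2F word (Pold1, Mcm6 and Pola1), and in ZHTc6 cells at 24 h among mitosis genes with a CHR word (Kif11, Kif4 and Kif23). They run 5′ to 3′ on the strand of the gene. Capitals mark E2F words in the first 3, and in the last 3 the CHR word nearest to the start with the CCAAT word nearest to it.
Pold1: gcgtatcttgtgGCGGGAAAagc
Mcm6: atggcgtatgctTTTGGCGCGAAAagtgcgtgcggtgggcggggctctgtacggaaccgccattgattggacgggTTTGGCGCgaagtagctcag
Pola1: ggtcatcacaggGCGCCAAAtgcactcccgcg
Kif11: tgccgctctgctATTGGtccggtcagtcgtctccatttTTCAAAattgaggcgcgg
Kif4: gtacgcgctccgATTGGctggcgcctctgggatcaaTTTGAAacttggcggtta
Kif23: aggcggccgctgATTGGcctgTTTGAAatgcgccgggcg
These stretches lie at chr7:44548766-44548788 (minus strand), chr1:128359733-128359827 (minus), chrX:93632274-93632305 (minus), chr19:37376325-37376380 (plus), chrX:100626048-100626101 (plus) and chr9:61946780-61946818 (minus), in the order given. Mcm6 held 3 E2F words, at -110, -106 and -47 from the start, of which the first 2 overlap. The CHR words of Kif11, Kif4 and Kif23 began at -19, 20 and 3, and each had ATTGG, the reverse complement of CCAAT, upstream of it at -45, -5 and -7.

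All values are log2 ratios of a time point over 0 h in the same line, and a gene is called where limma's adjusted p, by Benjamini-Hochberg over all 20669 features, was under 0.05. The targeted gene, Pou5f1, was lower in all 15 ZHBTc4 samples, with means of -2.12 at 24 h to -2.75 at 96 h. In ZHTc6 cells its means lay between 0.12 and 0.93 and it was called only at 120 h (0.69, with 0.63, 0.65 and 0.79 in the 3 samples). At 24 h its mean there was 0.12 (-0.22, -0.05 and 0.63 in the samples) and at 48 h 0.17 (-0.03, 0.10 and 0.43). The part of Pou5f1 in the changes of other genes at these times was not tested. The samples of ZHTc6 cells at 24 and 48 h stand apart in the spread of all ratios (a median absolute deviation of 0.417 to 0.865, against 0.194 to 0.358 at 72 to 120 h and 0.287 to 0.511 in ZHBTc4 cells), and their median over all features was 0.0984 and 0.103. The part of this spread in the values of single genes was not tested, and values after scaling to one spread are given beside the counts. Marker genes moved as well. Mesp1 and Gsc of mesoderm rose by 4.61 and 3.12 in ZHTc6 cells at 120 h. Only markers that could be named on the time course arrays were counted. Of the 4 such ES cell markers Zfp42 was lower at all 5 times in both lines. Nanog was lower at all but 96 h in ZHTc6 and 24 h in ZHBTc4 cells. Of the 7 trophoblast markers only Hand1 was measured. It was lower in ZHBTc4 cells at 72, 96 and 120 h (-0.21, -0.23 and -0.26). In ZHTc6 cells Hand1 was higher at 48 and 72 h (0.28 and 0.29) and lower at 120 h (-0.26). Of the 6 primitive endoderm markers 3 could be named and went both ways. In ZHTc6 cells at 24 h Gata4 and Sox17 were higher (0.68 and 0.91) and Lama1 was lower (-0.95). Utf1, another of the ES cell markers, was higher in ZHTc6 cells at 24 h (0.91) and 48 h (0.51) and lower from 72 h on, and its part in the changes of mitosis genes at these times was not tested. In a bulk sample fewer cells of a type and less RNA per cell cannot be told apart.

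**Figure D1:**
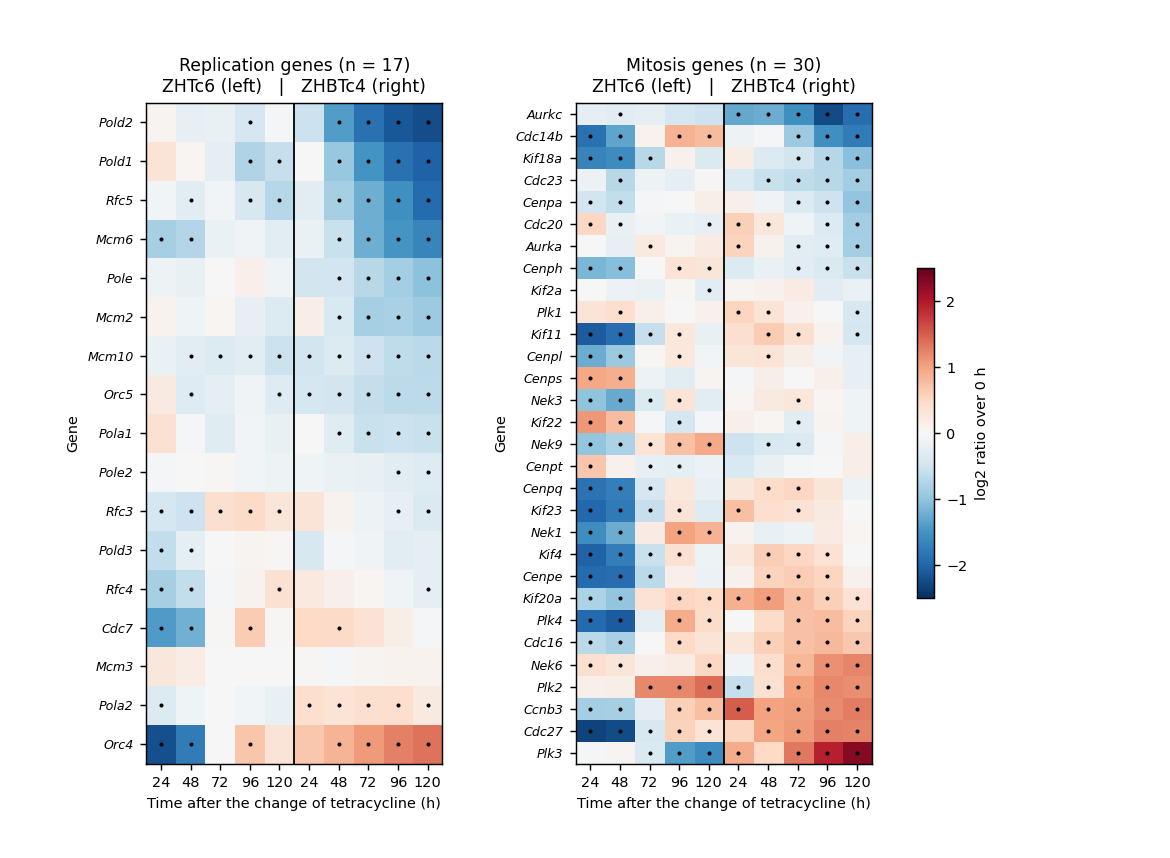
Mean log2 ratio over 0 h of the 17 replication genes (left) and the 30 mitosis genes (right) at 5 times, with ZHTc6 columns left of ZHBTc4 columns and a dot where the adjusted p was under 0.05. Blue fills the right block of most replication genes from 48 h on, and the left block of most mitosis genes at 24 and 48 h.

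More replication genes were lower than higher in ZHBTc4 cells from 48 h on, and the median of the class changed little after 72 h. At 120 h 2 of 17 were called higher and 4 lower in ZHTc6 cells, where 15.7% and 13.2% of all features were called higher and lower, and 2 were higher and 12 lower in ZHBTc4 cells, where 22.5% and 23.3% were. The median of the class was -0.12 in ZHTc6 and -0.56 in ZHBTc4 cells, against -0.02 over all features in both lines. In a refit on the oligos that the annotation of the array names, without those named by the study's tables, 1 of 9 was higher and 1 lower in ZHTc6 cells, and 2 were higher and 5 lower in ZHBTc4 cells. In ZHBTc4 cells the count of lower genes was 2 at 24 h (7.46% of all features lower, 6.80% higher), 9 at 48 h (13.1% each way), 9 at 72 h (20.0% lower, 19.9% higher) and 11 at 96 h (23.2% lower, 22.9% higher), and the median of the class was -0.01, -0.30, -0.52 and -0.53.

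The largest falls were those of polymerase delta. Pold1, its catalytic subunit, had -0.60, -0.59 and -0.56 in ZHTc6 and -2.10, -1.84 and -2.14 in ZHBTc4 samples at 120 h, so that the lines did not overlap. Its mean was -0.58 ± 0.02 in ZHTc6 (SD, n = 3, adjusted p = 0.00154) and -2.03 ± 0.16 in ZHBTc4 cells (SD, n = 3, adjusted p = 2.59e-06 by limma), a 4.07-fold fall. Pold2, the accessory subunit, had -0.13, -0.08 and 0.10 in ZHTc6 and -2.59, -1.76 and -2.30 in ZHBTc4 samples, and was 4.65-fold lower in ZHBTc4 cells. It had not passed the test there at 24 h (-0.06, -0.34 and -1.22 in the 3 samples), whereas at 48 h all 3 lay between -1.68 and -1.23. Pold3, another accessory subunit, behaved otherwise and was called only in ZHTc6 cells, at 24 h (-0.62) and 48 h (-0.23), with -0.24 in ZHBTc4 cells at 120 h.

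The clamp loader and the helicase were lower as well. Rfc5 had -0.66, -0.67 and -0.78 in ZHTc6 and -2.06, -1.70 and -1.98 in ZHBTc4 samples at 120 h, and both means passed the test. Rfc3 and Rfc4 parted by line, with 0.30 and 0.39 in ZHTc6 and -0.37 and -0.25 in ZHBTc4 cells, all 4 called. Mcm6 had -0.21, -0.31 and -0.34 in ZHTc6 and -1.85, -1.43 and -1.67 in ZHBTc4 samples, a 3.14-fold fall in ZHBTc4 cells. Its ZHTc6 mean was not called at 120 h (-0.29, adjusted p = 0.0518) but was at 24 h (-0.82) and 48 h (-0.74). Mcm2 reached -0.91 in ZHBTc4 cells at 120 h, where its samples ranged from -1.24 to -0.66. Mcm3 was called at no time in either line, with 0.00 in ZHTc6 and 0.08 in ZHBTc4 cells at 120 h. Mcm10, which brings polymerase alpha to the fork, was lower at all 5 times in ZHBTc4 cells (-0.68 at 120 h) and at the last 4 in ZHTc6 cells (-0.54).

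**Figure D2:**
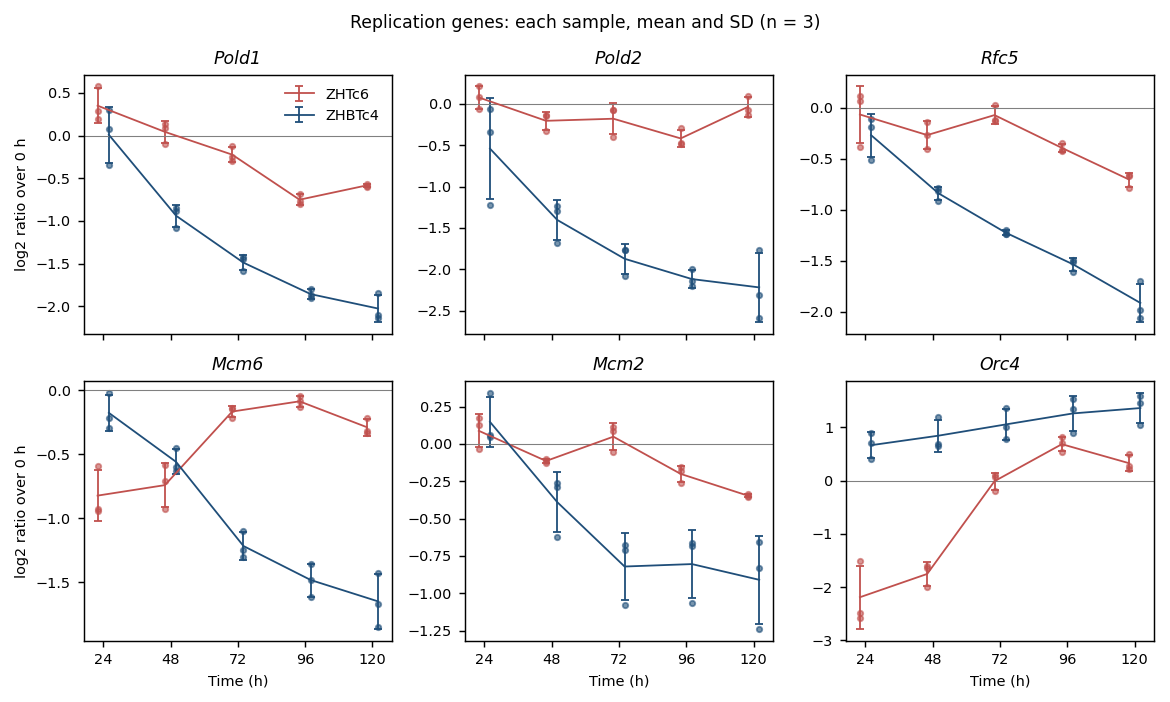
Log2 ratio over 0 h of 6 replication genes against time, with points for the 3 samples and lines and bars for mean and SD, ZHTc6 in red and ZHBTc4 in blue. Pold1, Pold2, Rfc5 and Mcm6 separate at 120 h with no overlap of the samples, and Orc4 starts at -2.19 in ZHTc6 cells and ends at 1.36 in ZHBTc4 cells.

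Polymerases epsilon and alpha moved less. Pole, the catalytic subunit of polymerase epsilon, was not called at any time in ZHTc6 cells (-0.11 at 120 h) and fell by 1.02 in ZHBTc4 cells, with -1.40, -0.58 and -1.09 in the samples. Pola1, the catalytic subunit of polymerase alpha, was called lower in ZHBTc4 cells at 120 h (-0.56), but its 2 oligos gave -1.20 and 0.07. The 2 oligos of Pole2 disagreed in the same way in ZHTc6 cells at 24 h (0.78 and -0.84), so that its mean of -0.03 there describes neither. Pola2, the other subunit of polymerase alpha, went against the class and was higher at all 5 times in ZHBTc4 cells, by 0.23 at 120 h.

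Origin genes went both ways. Orc5 was lower in ZHBTc4 cells at all 5 times (-0.65 at 120 h), and was lower in ZHTc6 cells at 48 h (-0.33) and 120 h (-0.31). Orc4 had -2.49, -2.58 and -1.51 in ZHTc6 and 0.71, 0.89 and 0.40 in ZHBTc4 samples at 24 h. It was thus 4.57-fold lower than at 0 h in ZHTc6 cells, and at 120 h it was 2.57-fold higher in ZHBTc4 cells (1.46, 1.59 and 1.04). Cdc7, the kinase that starts the helicase, followed it in ZHTc6 cells, with falls of 1.42 and 1.20 at 24 and 48 h and a rise of 0.63 by 96 h, and was called in ZHBTc4 cells only at 48 h (0.48). At 24 h 7 and at 48 h 9 of the 17 replication genes were lower in ZHTc6 cells, where 24.3% and 25.5% of all features were lower and 31.2% and 34.9% higher. By limma 0 were higher at both times (3 and 1 at an unadjusted p under 0.05). At 72 h 1 was called in each direction (8.80% of all features higher, 10.7% lower). At 96 h 3 were higher and 4 lower (18.5% and 16.3% of all features).

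Mitosis genes showed the larger swing in ZHTc6 cells. At 24 h 5 of 30 were higher and 18 lower in ZHTc6 cells (31.2% and 24.3% of all features). In ZHBTc4 cells 7 were higher and 2 lower (6.80% and 7.46% of all features). The median of the class was -0.82 in ZHTc6 and 0.12 in ZHBTc4 cells, against 0.10 and 0.02 over all features. At 48 h 4 were higher and 21 lower in ZHTc6 cells (median -0.82, all features 34.9% and 25.5%). In ZHBTc4 cells 13 were then higher and 3 lower (median 0.31, all features 13.1% each way). The ZHBTc4 counts rest on all samples, since with one left out 4 to 7 replication and mitosis genes were called at 24 h, against 12, and 17 to 21 at 48 h, against 28. With each array centred and scaled to one spread the ZHTc6 median was -0.58 at 24 h and -0.71 at 48 h. In those fits 17 and 23 genes were lower, as were 22% and 24.6% of all features. Among the 16 genes named by the annotation 4 were higher and 8 lower in ZHTc6 cells at 24 h, with a median of -0.36, and 3 were higher and 10 lower at 48 h, with a median of -0.44, nearer to 0 than those of the whole class.

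**Figure D3:**
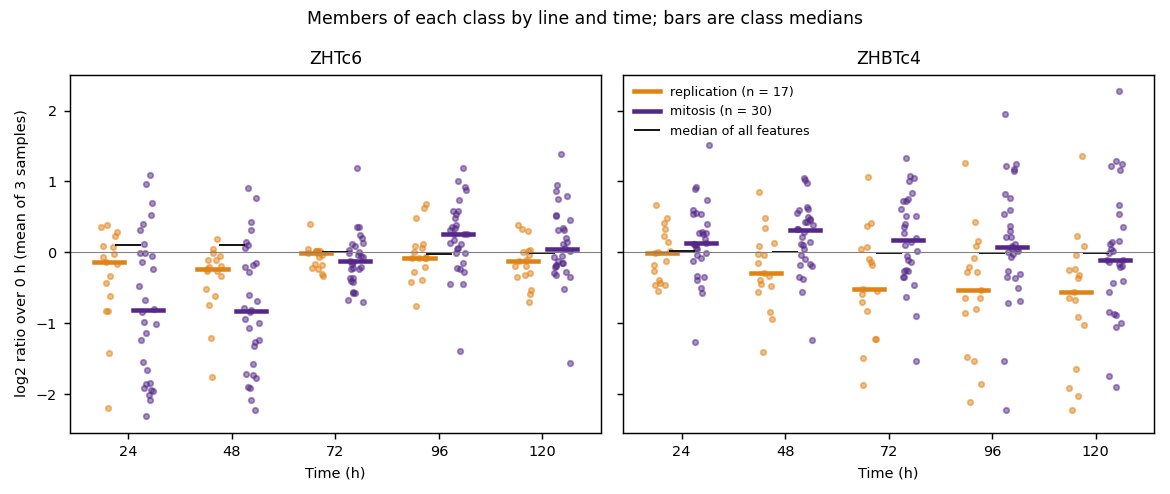
Mean log2 ratio over 0 h of each replication gene (orange, n = 17) and each mitosis gene (purple, n = 30) by time, ZHTc6 left and ZHBTc4 right, with class medians as coloured bars and the median of all features in black. The mitosis median is -0.82 in ZHTc6 cells at 24 h, and the replication median is -0.56 in ZHBTc4 cells at 120 h.

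Spindle kinesins had some of the largest early falls. Kif11, which pushes the spindle poles apart, had -2.53, -2.11 and -1.61 in ZHTc6 and 0.52, 0.60 and 0.11 in ZHBTc4 samples at 24 h. Its ZHTc6 mean of -2.09 ± 0.46 (SD, n = 3, adjusted p = 7.17e-05 by limma) is a 4.24-fold fall. Kif4, a chromosome-bound kinesin, fell by 2.02 and Kif23, which works at the midbody in cytokinesis, by 1.96 in ZHTc6 cells, whereas in ZHBTc4 cells Kif4 had 0.26 and Kif23 rose by 0.74. Kif18a, which damps chromosome movements, fell by 1.67 in ZHTc6 cells. Kif20a, another cytokinesis kinesin, was -0.79 in ZHTc6 and 0.89 in ZHBTc4 cells, both called, with no overlap of the samples of both lines. Kif22 went the other way and rose by 1.09 in ZHTc6 cells (1.42, 1.03 and 0.83 in the samples), and Kif2a, a microtubule depolymerase, passed the test in ZHTc6 cells only at 120 h (-0.28) and in ZHBTc4 cells at no single time.

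Subunits of the anaphase-promoting complex and centromere genes were part of the same fall. Cdc27 had -2.69, -2.31 and -1.94 in ZHTc6 and 0.56, 0.78 and 0.29 in ZHBTc4 samples at 24 h, the largest called fall among the 47 genes in ZHTc6 cells at that time (4.97-fold). Cdc16 fell by 0.67, and Cdc23 was at -0.14 at 24 h and fell by 0.69 at 48 h. Of the centromere genes Cenpe, a kinetochore motor, Cenpq, Cenpl, Cenph and Cenpa, the histone H3 variant of centromeres, fell in ZHTc6 cells at 24 h, by 1.92, 1.84, 1.23, 1.14 and 0.48. The 3 oligos of Cenpe agreed in sign but not in size (-2.88, -2.32 and -0.56). Cenps and Cenpt rose by 0.96 and 0.70 at that time.

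**Figure D4:**
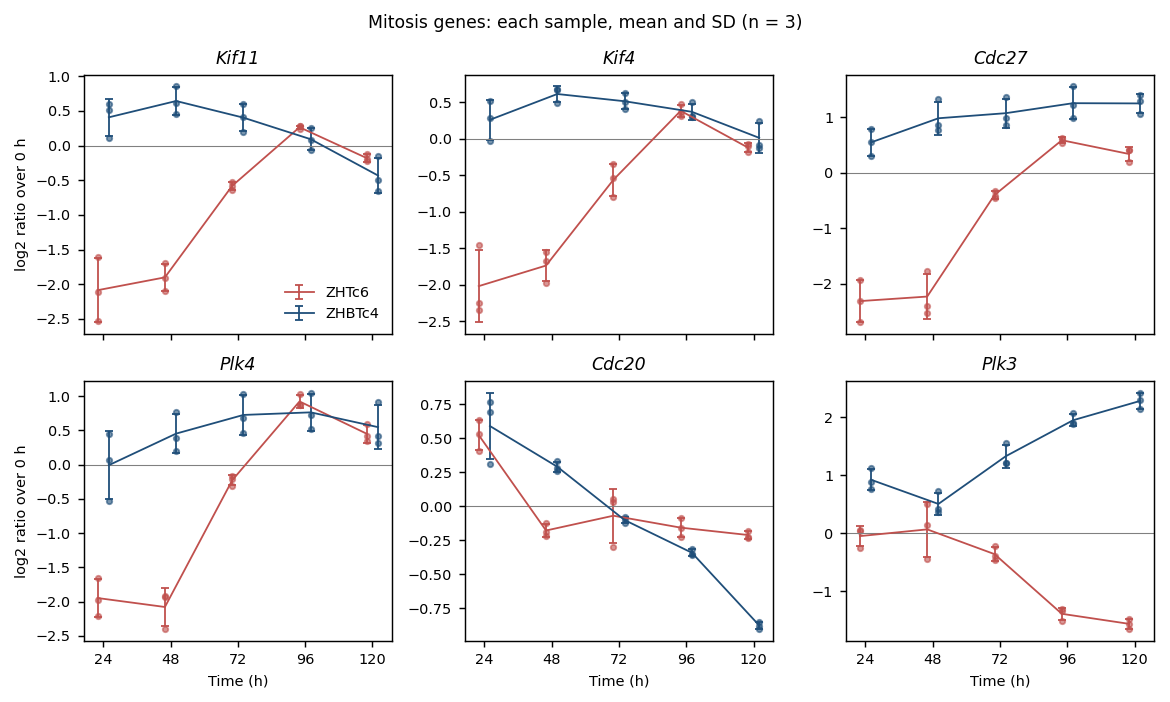
Log2 ratio over 0 h of 6 mitosis genes against time, with points for the 3 samples and lines and bars for mean and SD, ZHTc6 in red and ZHBTc4 in blue. Kif11, Kif4, Cdc27 and Plk4 lie near -2 in ZHTc6 cells at 24 and 48 h and above 0 at 96 h, and Plk3 ends at -1.56 in ZHTc6 and 2.28 in ZHBTc4 cells.

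Kinases were divided. Plk4, which starts the duplication of centrioles, had -2.21, -1.97 and -1.66 in ZHTc6 and 0.06, 0.45 and -0.54 in ZHBTc4 samples at 24 h. Nek1, Nek3 and Nek9 fell by 1.54, 1.01 and 0.99 in ZHTc6 cells. Plk1, the main mitotic Polo-like kinase, was at 0.32 in ZHTc6 (adjusted p = 0.0513) and rose by 0.54 in ZHBTc4 cells, and Aurka, a kinase of the spindle poles, was at -0.01 in ZHTc6 and rose by 0.55 in ZHBTc4 cells. Nek6 was called higher in ZHTc6 cells (0.40), but its 2 oligos gave -0.61 and 1.40. Cdc20, the activator of the anaphase-promoting complex, rose in both lines at 24 h, with 0.63, 0.53 and 0.41 in ZHTc6 and 0.70, 0.77 and 0.31 in ZHBTc4 samples, which overlapped.

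The fall of mitosis genes in ZHTc6 cells did not last, and by 96 h more of them were higher than lower. At 72 h 3 of 30 were higher and 10 lower (median -0.13), where 8.80% and 10.7% of all features were. At 96 h 15 were higher and 3 lower (median 0.26, all features 18.5% and 16.3%), and at 120 h 10 were higher and 3 lower (median 0.04, all features 15.7% and 13.2%), so that the share of lower genes was near that of all features. Of the 18 genes that were lower at both 24 and 48 h none was lower at 96 or 120 h, and 14 were higher at one of these times or both. Of the 6 replication genes lower at both early times none was lower late either, and 4 were higher. These genes were picked by their low early values, and the matching share of all features was not counted. Whether the return is particular to mitosis genes was therefore not tested. The paper describes an early change and later recovery for many genes in this line. Plk4 was at 0.92 at 96 h, Nek1 at 1.01 and Cdc14b, a phosphatase that counters mitotic kinases, at 0.88. The count at 72 h rests on all 3 samples, since with any one left out 4 to 5 replication and mitosis genes were called, against 15 with all, and at 120 h 10 to 14 against 19 (12 with 1 pair of arrays assigned as its label reads).

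The late changes of mitosis genes in ZHBTc4 cells went both ways. At 72 h 14 of 30 were higher and 9 lower (19.9% and 20.0% of all features). At 96 h 10 were higher and 8 lower (22.9% and 23.2%), and at 120 h 8 and 10 (22.5% and 23.3%), both near the shares of all features. Cdc20 had -0.18, -0.22 and -0.23 in ZHTc6 and -0.88, -0.85 and -0.90 in ZHBTc4 samples at 120 h, with no overlap. Aurka was at 0.21 in ZHTc6 and fell by 0.84 in ZHBTc4 cells, and Cenpa was at 0.14 in ZHTc6 and fell by 0.99 in ZHBTc4 cells. Aurkc, the Aurora kinase known best from germ cells, was lower at all 5 times in ZHBTc4 cells and at -1.91 at 120 h, against -0.52 in ZHTc6 cells (adjusted p = 0.058). Ccnb3, a B-type cyclin, was higher at all 5 times in ZHBTc4 cells, with 1.53, 1.42 and 1.58 in the samples at 24 h, when ZHTc6 samples had -1.10, -0.62 and -0.82. Plk3, a Polo-like kinase of stress responses, had -1.65, -1.48 and -1.56 in ZHTc6 and 2.29, 2.41 and 2.14 in ZHBTc4 samples at 120 h. Plk2, its close relative, rose in both lines, by 1.39 in ZHTc6 and by 1.16 in ZHBTc4 cells at 120 h.

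To describe the turn within a line, the mean of 96 and 120 h was set against the mean of 24 and 48 h in one fit of all samples. In ZHTc6 cells 21 of 30 mitosis genes were higher late and 6 lower (30.4% and 38.1% of all features), with a median of 1.18, and 6 of 17 replication genes were higher and 6 lower. In ZHBTc4 cells 8 mitosis genes were higher and 13 lower (16.9% and 16.6% of all features), and 1 replication gene was higher and 12 lower, with a median of -0.40. Cdc27, Plk4 and Orc4 rose most in ZHTc6 cells (2.73, 2.70 and 2.48), and Plk3 and Kif22 fell by 1.48 and 1.17. In ZHBTc4 cells Cdc14b, Pold1 and Mcm6 fell most (by 1.56, 1.48 and 1.20), and Plk3, Plk2 and Nek6 rose by 1.40, 1.28 and 1.00.

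The difference between the lines was tested in the same fit as each time point. At 24 h 7 of the 47 genes were higher and 23 lower in ZHTc6 than in ZHBTc4 cells (22.9% and 18.8% of all features), at 48 h 7 and 25 (27.2% and 21.5%), at 72 h 13 and 14 (11.3% and 13.1%), at 96 h 19 and 9 (18.1% and 15.9%) and at 120 h 18 and 7 (15.8% and 14.6%). Cdc27, Orc4 and Kif23 had the largest differences at 24 h (-2.86 ± 0.23, -2.86 ± 0.29 and -2.70 ± 0.19, SE). At 120 h Cdc14b and Pold2 were higher in ZHTc6 cells by 2.54 ± 0.19 and 2.18 ± 0.21, and Plk3 was lower by 3.84 ± 0.10.

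Other genes of both processes, taken from a list of textbook members, were counted in the same way. Over all features 31.2% were higher and 24.3% lower in ZHTc6 cells at 24 h, 18.5% and 16.3% at 96 h, and 22.5% and 23.3% in ZHBTc4 cells at 120 h. Of 32 listed replication genes 22 could be named on the time course arrays. In ZHTc6 cells at 24 h by limma 0 were higher (0 at an unadjusted p under 0.05) and 14 lower (median -0.50), and in ZHBTc4 cells at 120 h 5 were higher and 10 lower (median -0.23). Rnaseh2a, Lig1, Timeless and Pcna, the sliding clamp, fell by 2.00, 1.62, 1.59 and 1.34 in ZHBTc4 cells at 120 h, while Rrm1, a subunit of ribonucleotide reductase, and Slbp, which binds histone mRNA, rose by 0.92 and 0.78. Of 39 listed mitosis genes 23 could be named there. In ZHTc6 cells at 24 h 1 was higher (Mybl2, 0.39) and 20 were lower (median -1.33), led by Smc3 of cohesin (-3.33), Mki67 (-2.99) and Smc4 of condensin (-2.53), and at 96 h 11 were higher and 2 lower. In ZHBTc4 cells at 120 h 3 were higher and 11 lower (median -0.34), and Mybl2, a transcription factor of the cell cycle, fell by 1.71. The 20 genes that share only the letters had 3 higher and 9 lower in ZHTc6 cells at 24 h, and 10 higher and 6 lower in ZHBTc4 cells at 120 h.

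At 0 h both lines were compared through the reference RNA. Of the 33 replication genes 30 had a mean above the reference in ZHTc6 and 27 in ZHBTc4 cells. Of the 56 mitosis genes 36 and 32 did, and of all 18443 features 9849 and 9944. The medians over the reference were 0.52 and 0.44 for replication, 0.23 and 0.09 for mitosis and 0.04 and 0.05 for all features. ES cell markers lay above the reference in both lines (6 of 6), with trophoblast and fibroblast markers mostly below it. Mesoderm markers also lay above it in both lines (3 of 3). Primitive endoderm markers went both ways, with 2 of 5 above it in ZHTc6 and 3 of 5 in ZHBTc4 cells. Among the markers Krt19 and Krt8 were called higher in ZHTc6 than in ZHBTc4 cells (1.54 and 0.61), and Klf4 and Lama1 lower (-0.83 and -1.14). By limma over 18443 features 2 replication genes were higher in ZHTc6 cells and 0 lower (6 and 4 at an unadjusted p under 0.05), and 4 mitosis genes were higher and 2 lower, where 4.60% and 4.02% of all features were. Cdc6, which loads the helicase, had 1.91, 1.95 and 1.96 in ZHTc6 and 0.90, 1.17 and 1.43 in ZHBTc4 samples (difference 0.77 ± 0.15 SE, adjusted p = 0.0374). Rfc2 was higher by 0.60, Cdc25a, a phosphatase that activates Cdk, by 0.80, Plk3 by 0.52, Cenpf by 0.48 and Cdc20 by 0.46. Nek9 was lower by 0.62 (-0.77, -0.65 and -0.59 in ZHTc6, and -0.07, -0.07 and 0.01 in ZHBTc4 samples), and Cenpt by 0.66. The samples of the lines did not overlap for these 8 genes, which were picked by their calls. Nor did they overlap for many genes without a call, such as Aurka, Kif23, Pole and Rfc5. The share of all features without overlap was not counted, so that a lack of overlap does not set the called genes apart. Leaving out any one of the 3 ZHTc6 samples, or the first or second ZHBTc4 sample, gave 0 calls by limma. Those fits gave 16 to 25 genes at an unadjusted p under 0.05. Leaving out the third ZHBTc4 sample gave 31 calls. The shares of all features in these fits were not counted. With the replicate number as a block 0 were called as well (25 at an unadjusted p under 0.05), but numbers do not pair the lines.

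The siTcl1 arrays were single, so that their differences have no test and no error, and both share the siGFP array. The doses are labelled 560 and 1120 uM, whereas tables of the study write nM, and the unit was not settled here. Tcl1 itself was lower by 1.73 at the lower and 2.20 at the higher dose. The replication genes had a median difference of -0.17 at 560 and -0.20 at 1120, the mitosis genes of 0.00 at both, and all features of -0.01 and 0.00. Of 33 replication genes 27 (81.8%) were below siGFP at both doses, as were 22 of 56 mitosis genes (39.3%) and 36.2% of all features. Of the other replication genes on the list 20 of 26 (76.9%) were.

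**Figure D5:**
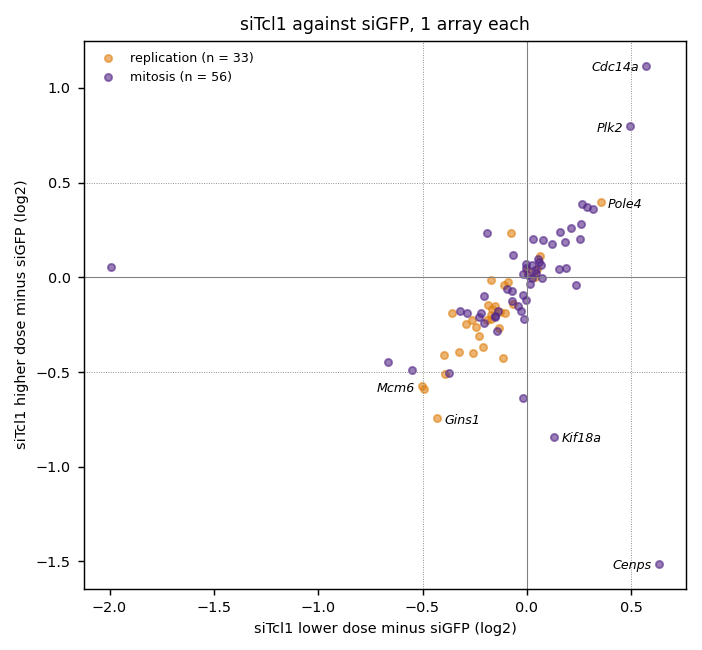
Log2 difference from siGFP at the higher siTcl1 dose against that at the lower dose for 33 replication genes (orange) and 56 mitosis genes (purple), 1 array per treatment, with dotted lines at 0.5 on both sides. Replication genes crowd the lower left part, with Mcm6 at -0.50 and -0.58, and the mitosis gene at -1.99 on the lower dose axis is Cenpc1 (0.06 at the higher dose).

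Few genes passed 0.5 at both doses, a size set for description. Mcm6 did so downwards (-0.50 and -0.58) and Cdc14a upwards (0.57 and 1.12), that is, 1 of the 89 replication and mitosis genes each way, where 2.68% of all features passed downwards and 4.78% upwards. Mcm6 lay just past the limit at the lower dose, and Pold1 just short of it (-0.49 and -0.59). Gins1, a subunit of the helicase complex, had -0.43 and -0.74, Pold3 -0.39 and -0.51, Rfc4 -0.40 and -0.41, and Rfc1, the large subunit of the clamp loader, -0.32 and -0.40. Pole4 was above siGFP at both doses (0.35 and 0.40). Plk2 had 0.50 and 0.80, Cdc20 0.32 and 0.36 and Aurka 0.29 and 0.37, whereas Kif11 (-0.07 and -0.07) and Kif4 (-0.002 and 0.05) stayed near 0. Kif18a (0.13 and -0.84) and Cenps (0.63 and -1.51) changed sign between the doses.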

How the data were processed

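Each array was deposited as log10 ratios (Cy5 over Cy3) that the authors took from Agilent Feature Extraction, bounded at -2 and 2, with settings not given in the sources used here. They were turned to log2 of the time point over 0 h, or of the sample over the reference, and the 60 time course arrays were averaged by dye-swapped pair. Pairs correlated with 0.0337 to 0.825. Rows below the lowest oligo number (218) and oligos at a bound on over 0.5 of the arrays were left out. Oligos of one gene were averaged, and most genes have 1. Names came from the annotation where it gives 1 gene (4262 of 22575 rows, with several for 6822 and none for 11491), otherwise from the study's tables. The ZHTc6 120 h pair labelled sample 2 against 0 h sample 1 was taken as replicate 1.

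Alternatives were scaling, single dyes, single lines, the block, left-out samples, other oligos or names, no filter and the labelled pair. Each time point was fitted with limma 3.58.1 (R 4.3.3) on the samples of both lines together, without a replicate block. The labels give samples of one number and line the same 0 h RNA, so that numbers pair time points of a line. Their deviations correlated with medians of 0.114 to 0.378, and the block correlation was 0.21. Numbers do not pair the lines. The tests were checked on simulated data with independent noise. Far fewer genes were changed there than were called in the data, so that the shares recovered may differ in the data. At single times a change of 0.5 was recovered for 14% to 25% of changed genes, and of 1 for 74% to 84%. At 0 h these shares were 1% and 27%, so that a gene not called may still have changed. No signal intensities were used, so that oligos with little signal were not set apart and remain in the shares over all features. Their part in those shares was not tested. The paper required a minimum signal over background for its later analyses. The number of arrays limits the precision. The members, lists and tests were chosen with earlier results of these data known. Any matching gene could be named, with values for those of the main complexes, those with the largest called changes at 24 h in ZHTc6 and 120 h in ZHBTc4 cells, and those that went against their class.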

Additional observations from a re-analysis of the deposited data

Results flagged for a closer look

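Every item here is a difference between the lines under the same time comparison, tested as ZHTc6 minus ZHBTc4 by limma with adjustment over 20669 features. Of the 47 replication and mitosis genes 30, 32, 27, 28 and 25 differed at the times 24, 48, 72, 96 and 120 h. Over all features 22.9% were higher and 18.8% lower at the first of these times, 27.2% and 21.5% at the second, 11.3% and 13.1% at the third, 18.1% and 15.9% at the fourth and 15.8% and 14.6% at the fifth. The single genes below moved in opposite directions, with both lines and the difference called, and values are log2 differences.

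At 24 h Kif23 (-2.70), Ccnb3 (-2.36), Kif20a (-1.68) and Pola2 (-0.749) were lower in ZHTc6 and higher in ZHBTc4 cells than at 0 h. At 48 h the same pattern held for the kinesins Kif11 (-2.54), Kif4 (-2.35) and Kif20a (-2.04), for Cdc27 (-3.21), Cdc16 (-1.41) and Cdc20 (-0.470) of the anaphase-promoting complex and its activator, for the centromere genes Cenpe (-2.46), Cenpq (-2.18) and Cenpl (-1.27), for Ccnb3 (-1.85), and for Orc4 (-2.60) and Cdc7 (-1.68) of replication. These 2 times are those at which the ratios of ZHTc6 samples had the wider spread (0.417 to 0.865), whose part in the differences was not tested.

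At 72 h Kif4 (-1.07), Kif11 (-0.982), Kif23 (-0.931), Cdc27 (-1.47), Cenpe (-1.29), Cenpq (-0.932), Nek3 (-0.642) and Plk3 (-1.69) were lower in ZHTc6 and higher in ZHBTc4 cells, and Nek9 (0.703) and Aurka (0.501) the reverse. At 96 h Cdc14b (2.41), Cenph (0.696) and Rfc3 (0.690) were higher in ZHTc6 and lower in ZHBTc4 cells, and Plk3 (-3.33) the reverse. At 120 h Cdc14b (2.54), Cenph (0.866), Rfc3 (0.667) and Rfc4 (0.639) were higher in ZHTc6 and lower in ZHBTc4 cells, and Plk3 (-3.84) again the reverse.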

How the results depend on the processing

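Of 193 recomputed counts of called replication and mitosis genes 158 stayed within 1.5 times the value reported and 35 did not. With names from the annotation alone, which leaves 25 of 47 genes, 14, 15, 5, 12 and 8 were called in ZHTc6 cells at 24 to 120 h (30, 34, 15, 25 and 19 with all names), and 6, 15, 18, 18 and 17 in ZHBTc4 cells (12, 28, 34, 31 and 32). The ZHBTc4 count at 24 h moved with several settings, and the cause was not tested. With each array centred and scaled it was 22, where 12.5% of all features were higher and 12.1% lower, against 6.80% and 7.46% as deposited. One fit of all times gave 27 without a block and 27 with the replicate block, and each line fitted alone gave 4. Shares of all features were not counted for these last fits, for annotation names, for left-out samples or for the labelled pair. With any one ZHBTc4 sample left out the ZHBTc4 count was 4 to 7 at 24 h. At 48 h it was 17 to 21 (18 without the second sample, 17 without the third). In ZHTc6 cells it was 4 to 5 at 72 h, 15 to 19 at 96 h (15 without the first) and 10 to 14 at 120 h (10 without the first, 11 without the third), and 12 at 120 h with the pair taken as labelled. At 0 h the count was 0 with the replicate block (25 genes at an unadjusted p under 0.05), though numbers do not pair the lines. It was 0 to 31 with a sample left out, against 8. The replicate block changed no other count by over 1.5 times. For siTcl1 4 of 89 genes (3 lower, 1 higher), against 2 (1 each way), passed 0.5 with each array centred. Of all 18443 features 519 then passed it downwards and 858 upwards. Without centring 13 of the 89 passed 0.3, as did 1369 of all features downwards and 1660 upwards. Of 4904 recomputed values of single called genes 4361 kept direction and call, 540 lost the call and 3 reversed. These were Nek6 with its first oligo in ZHTc6 cells at 24 h (-0.61) and 48 h (-0.21), and Pola1 with its annotated oligo in ZHBTc4 cells at 120 h (0.074). Centring moved the medians of mitosis genes in ZHTc6 cells to -0.91 at 24 and 48 h. The precision of every count is limited by the 3 samples of each line and time.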
